A study of Mus musculus with 10 samples.

Results

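The genes described here encode the receptors that excitatory synapses of the hippocampus use to sense glutamate, together with the proteins that hold these receptors in the postsynaptic membrane. The set holds 33 genes, chosen by symbol from a list that left out the kainate receptors. It comprises 4 AMPA receptor subunits, 7 NMDA receptor subunits, 1 delta receptor, 6 metabotropic receptors, 3 auxiliary subunits, 10 scaffold genes and the 2 neuronal subunits of the kinase CaMKII. Of these, 32 were measured, out of 19938 genes in all. Grin1, the obligatory NMDA receptor subunit, was not analysed here because no transcript cluster carried its symbol in the array annotation used. A transcript cluster is the group of probes that measures 1 transcript or a part of it.

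Hippocampal RNA was profiled in 5 male Ts65Dn mice and 5 male littermate controls, all 16 weeks old and of the F1 hybrid B6C3B background, each on its own Affymetrix Mouse Gene 1.0 ST array. Ts65Dn mice model Down syndrome through a small additional chromosome that carries parts of mouse chromosomes 16 and 17, and controls lack this chromosome. Right and left hippocampi of a mouse gave a single RNA sample, so all cell types of the tissue contribute, and fewer cells of a type cannot be told apart from less RNA per cell. Values are log2 signals, on which a difference of 1 is a doubling, and the signals of different genes are not compared because probes differ in brightness.

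AMPA receptors carry the fast excitatory current, whereas NMDA receptors open when glutamate arrives at an already depolarised membrane and let in the calcium that starts synaptic plasticity. Metabotropic receptors act through G proteins, more slowly, on both sides of the synapse. Scaffold proteins of the PSD-95, SAPAP, Shank and Homer families link these receptors to each other, to CaMKII and to the actin skeleton of the spine.

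The genotype was visible in the arrays. The mean signal of the 127 measured genes of the triplicated chromosome 16 segment lay between 7.56 and 7.62 in Ts65Dn hippocampi and between 7.36 and 7.39 in controls, and for the 31 genes of the chromosome 17 segment it lay between 8.12 and 8.19 and between 7.87 and 7.91. None of the 33 glutamate receptor and scaffold genes lies in either segment. Dlg1 and Grin2a are on chromosome 16, and Dlgap1 and Grm4 on chromosome 17, outside the triplicated parts. The array medians ranged from 7.38 to 7.41. Markers of excitatory neurons gave summed linear signals of 15840 to 16999 in Ts65Dn hippocampi and 15104 to 16711 in controls, and 5 of 6 listed were measured.

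The comparison asked whether transcripts of glutamate receptors and their scaffolds differ between trisomic and control hippocampi. No gene of the set passed the test, and the differences were small. With limma, 0 of 32 genes had an adjusted p under 0.05, where 74 of 23410 tested transcript clusters did (0.316%), 1 of them with the lower value in Ts65Dn (0.00427%). The lowest adjusted p of the set was 1.00 after rounding. At an unadjusted p under 0.05, 4 genes were lower and 0 higher, namely Grin2c, Grin2d, Grin3a and Homer2, and the count of 4 was 2 without Ts65Dn replicate 1 or 2 or without control replicate 3 or 4, and 6 without control replicate 1. That is 12.5% of the set on the lower side, against 1.43% of all transcript clusters on that side and 1.73% on the other. The Ts65Dn and control mice overlapped for each of the 32 genes, and over all transcript clusters every Ts65Dn mouse lay below every control for 0.308%.

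A rank method, modelled on the kind of test the study used, gave 5 lower genes and 0 higher ones, and called 2.46% of all transcript clusters lower and 2.92% higher. Its 5 calls were the 4 genes just named and Grm8. The fold changes of the set ran from 0.873 for Grin2c to 1.06 for Grm2. For 31 of 32 genes the 95% interval of the fold change stayed within a factor of 1.25 in both directions, the exception being Grin2c, and for 25 it stayed within 1.2. The standard error of a difference ranged from 0.03 to 0.11 on the log2 scale, so that a change of a few percent was not detectable with 5 mice per genotype. Larger changes could also miss the adjusted threshold. The fold change of 0.873 for Grin2c did not pass it. Nor did one of 0.811 for Nos1, a gene outside the set (adjusted p = 0.225, limma).

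**Figure D1:**
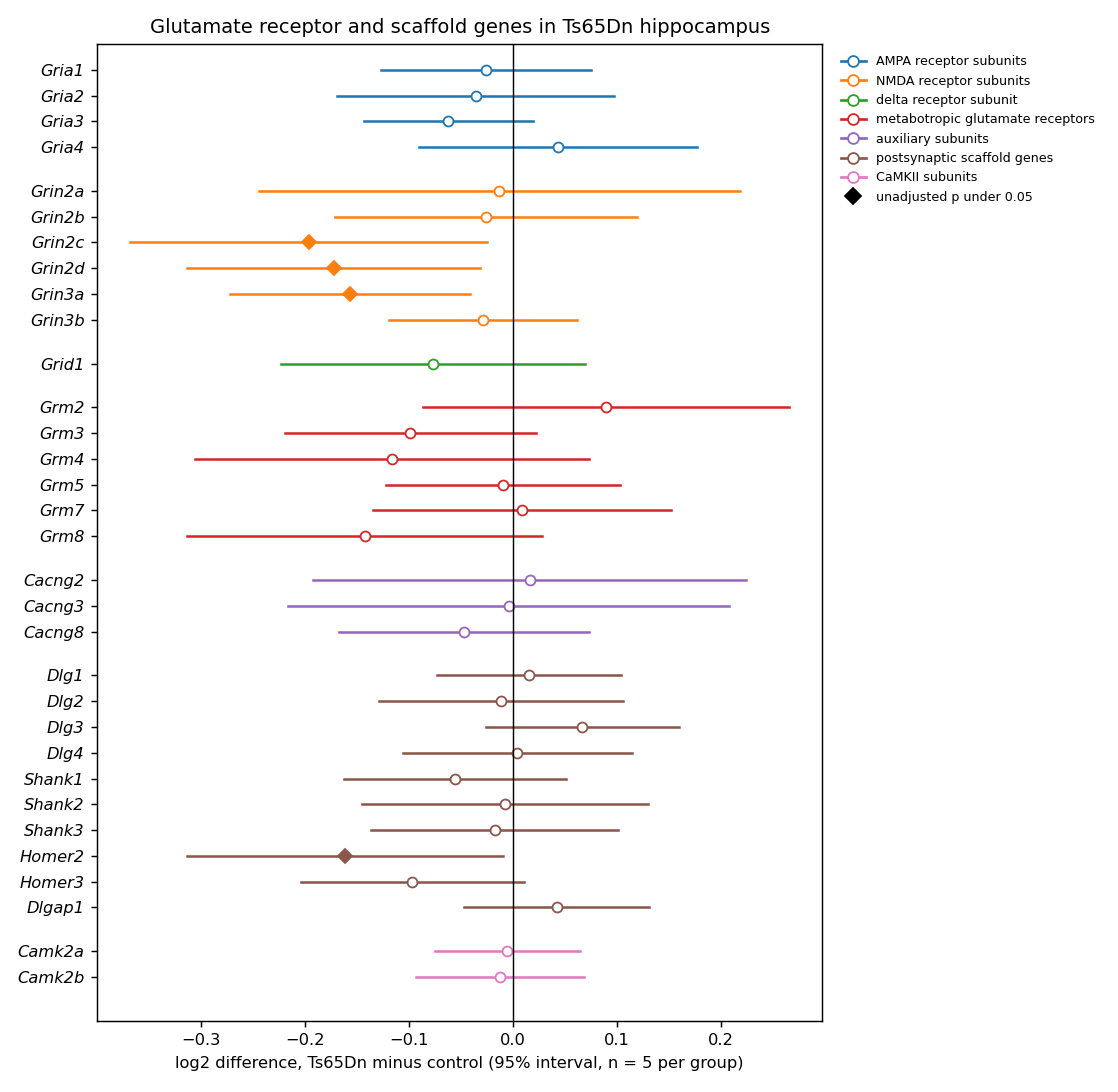
Log2 difference (Ts65Dn minus control) of the 32 measured genes with its 95% interval, n = 5 per genotype, coloured by receptor or scaffold group; filled diamonds have an unadjusted limma p under 0.05. The intervals of Grin2c, Grin2d, Grin3a and Homer2 lie below 0, and those of the other genes cross 0.

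The NMDA receptor subunits stood lowest among the groups. Each of the 6 measured subunits had a difference below 0, with a median of -0.09, against a median of -0.0028 over all transcript clusters, and 3 of the 6 were below an unadjusted p of 0.05. The count of 6 was 4 without Ts65Dn replicate 2 or without control replicate 4, where Grin2a and Grin2b had differences above 0, and it was 5 without Ts65Dn replicate 1 or without control replicate 5. The median ranged from -0.11 to -0.07 with an array left out. The mean over the 6 subunits was 9.01 ± 0.06 in Ts65Dn hippocampi and 9.11 ± 0.06 in controls (log2, SD, n = 5 per group). These 3 were Grin2c, Grin2d and Grin3a, whereas Grin2a, Grin2b and Grin3b had differences closer to 0.

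Grin2c, at chr11:115249169-115267297 (GRCm38.p6), encodes GluN2C, a subunit with weak magnesium block that is best known from cerebellar granule cells and thalamus. Its log2 signal in Ts65Dn replicates 1 to 5 was 7.66, 7.56, 7.92, 7.74 and 7.97, and in control replicates 1 to 5 it was 7.83, 7.91, 8.03, 8.06 and 7.99. Ts65Dn replicates 3 and 5 lay within the range of the controls, and the other 3 were below every control. The difference was -0.20 ± 0.08 (log2, SE), a fold change of 0.873 (95% interval 0.775 to 0.983), with an unadjusted p of 0.0286 and an adjusted p of 1.00 in limma.

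Grin2d, at chr7:45831883-45871194, encodes GluN2D, a subunit of slowly closing receptors that in the adult hippocampus is known mainly from interneurons. The Ts65Dn mice had 7.64, 7.89, 7.68, 7.47 and 7.68, and the controls 7.87, 7.84, 7.84, 7.88 and 7.78. Ts65Dn replicate 2 was the highest of all 10 mice, while the remaining Ts65Dn mice were below every control. The difference was -0.17 ± 0.06 and the fold change 0.887 (95% interval 0.805 to 0.979, unadjusted p = 0.0210, adjusted p = 1.00, limma).

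Grin3a, at chr4:49661611-49846023, encodes GluN3A, a glycine-binding subunit that lowers calcium entry and is most abundant in the young brain. Ts65Dn mice had 8.79, 8.74, 8.63, 8.62 and 8.71 and controls 8.90, 8.76, 8.99, 8.78 and 8.84. All 5 Ts65Dn mice were below the control mean, and the overlap came from Ts65Dn replicate 1, which was above control replicates 2 and 4. The difference was -0.16 ± 0.05 and the fold change 0.897 (95% interval 0.828 to 0.972, unadjusted p = 0.0122, adjusted p = 1.00, limma), which was the smallest unadjusted p of the set.

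Grin2a and Grin2b encode GluN2A and GluN2B, the glutamate-binding subunits of most NMDA receptors of the adult forebrain. The Grin2a signal was 11.80, 11.59, 12.07, 11.90 and 12.02 in Ts65Dn mice and 11.66, 11.76, 11.87, 12.11 and 12.04 in controls, a difference of -0.01 ± 0.11. The Grin2b signal was 11.93, 11.77, 11.99, 11.83 and 11.96 in Ts65Dn mice and 11.80, 11.86, 11.84, 12.10 and 12.01 in controls, a difference of -0.03 ± 0.07. Grin2a spread widely within each genotype (SD 0.19 in both), and its standard error was the highest of the set. The spread of Grin2b was smaller, with an SD of 0.10 in Ts65Dn mice and 0.13 in controls. Grin3b, for GluN3B, gave -0.03 ± 0.04 at a mean signal of 6.17, the dimmest of the set.

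**Figure D2:**
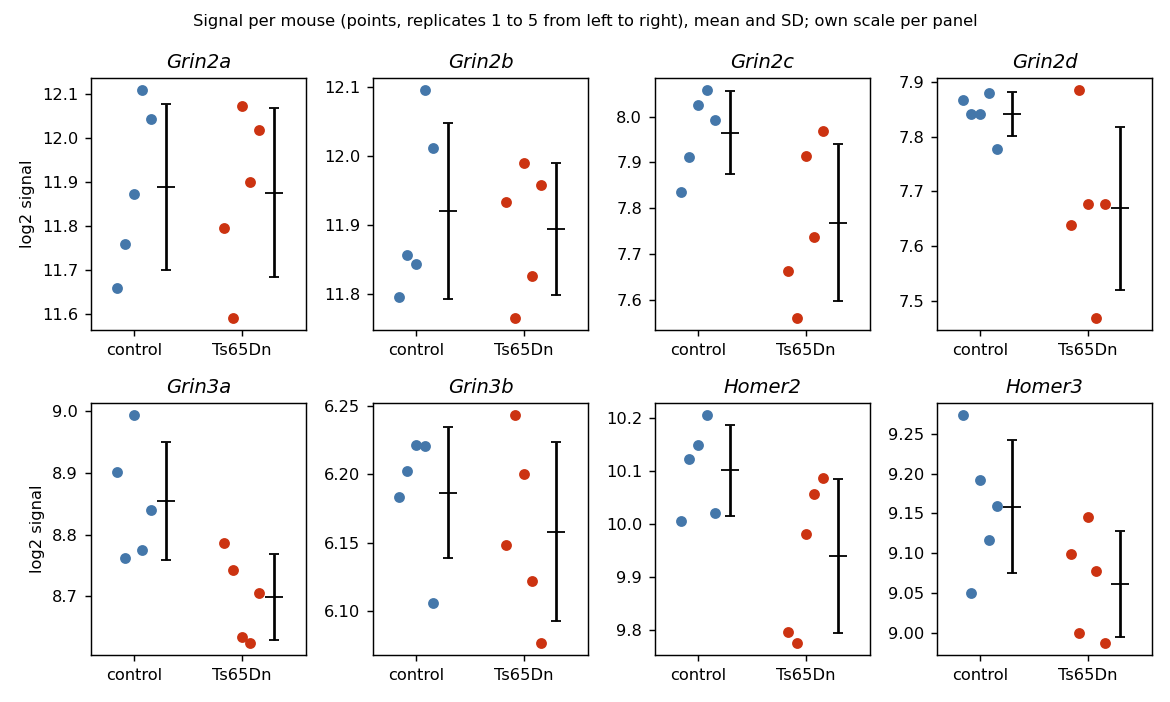
Log2 signal of the 6 measured NMDA receptor subunits and of Homer2 and Homer3 in each of the 5 control and 5 Ts65Dn mice (points), with the mean and SD (bars); each panel has its own scale. The genotypes overlap in every panel, and for Grin2d only Ts65Dn replicate 2, at 7.89, reaches the controls.

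Sequences before listed starts are shown for the genes at an unadjusted p under 0.05 in limma, which this comparison itself picked. These genes were not all low in the same mice. Ts65Dn replicate 2 was the lowest mouse for Grin2c and Homer2 and the highest for Grin2d. RefSeq sequences of GRCm38.p6 covering the 150 bases before a listed transcript start were available for 3 of these genes. All 3 are on the minus strand and written 5′ to 3′ in the direction of transcription. Capitals mark the GC box GGGCGG on either strand, and neighbouring boxes can overlap. The windows are chr11:115267244-115267393 for Grin2c, chr7:45866682-45866831 for Grin2d and chr7:81706926-81707075 for Homer2, which has a further listed start. The Grin2d window lies wholly within the annotated gene, at an internal start downstream of the 5′ end, the Grin2c window overlaps the 5′ end of its gene, and the Homer2 window lies just upstream of its gene.
Grin2c: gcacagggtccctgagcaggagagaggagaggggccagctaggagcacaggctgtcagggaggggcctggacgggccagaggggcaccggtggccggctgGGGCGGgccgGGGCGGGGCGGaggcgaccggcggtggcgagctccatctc
Grin2d: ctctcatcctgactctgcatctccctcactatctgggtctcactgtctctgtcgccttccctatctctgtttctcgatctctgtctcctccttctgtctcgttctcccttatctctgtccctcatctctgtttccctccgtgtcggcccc
Homer2: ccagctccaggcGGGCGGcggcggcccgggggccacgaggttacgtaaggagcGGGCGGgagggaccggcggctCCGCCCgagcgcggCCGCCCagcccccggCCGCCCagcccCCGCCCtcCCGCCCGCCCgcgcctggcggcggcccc

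The Homer2 window shown held 8 GC boxes and was 86.7% G and C. The Grin2c window held 3 and was 76.0%, and the Grin2d window held 0 and was 54.0%. At the further Homer2 start the window, chr7:81692966-81693115, held 0 GC boxes and was 47.3% G and C. The 3 windows shown therefore have no common GC box count or base composition, and the Homer2 values depend on the start. Over 35 windows of 22 genes of the set, 37.1% held a GC box, against 28.6% of 32851 windows of all genes. The median share of G and C was 59.3% against 54.0%. Chromosome 18, where Camk2a lies, was left out of the windows of the set but not of those of all genes. The letters CCAAT, on either strand, were in 20% of the windows of the set and 24.5% of all, TATAAA in 5.71% and 7.57%, and TGACG, the core of the cAMP response element, in 11.4% and 13.3%.

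Of the AMPA receptor subunits, Gria1 to Gria4 encode GluA1 to GluA4, and channels that hold an edited GluA2 subunit pass little calcium. The group had 3 differences below 0 and 1 above, with a median of -0.03, and 0 at an unadjusted p under 0.05. Gria1 was at 12.44, 12.28, 12.44, 12.41 and 12.35 in Ts65Dn mice and at 12.38, 12.46, 12.37, 12.51 and 12.35 in controls, and its fold change was 0.982 (95% interval 0.916 to 1.05). Gria2 was at 11.84, 11.92, 11.92, 12.04 and 11.85 in Ts65Dn mice and at 11.78, 12.10, 11.90, 12.00 and 11.97 in controls, and its fold change was 0.976 (95% interval 0.890 to 1.07). The lowest of the 10 values was from a Ts65Dn mouse for Gria1 and from a control for Gria2, and the genotypes overlapped throughout. Gria3 had a difference of -0.06 ± 0.04 with all 5 Ts65Dn mice below the control mean, and Gria4 one of 0.04 ± 0.06.

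The delta receptor Grid1 encodes GluD1, which binds cerebellins and organises synapses more than it passes current. Its signal was 10.34, 10.12, 10.26, 10.16 and 10.40 in Ts65Dn mice and 10.38, 10.18, 10.28, 10.46 and 10.37 in controls. The ranges overlapped almost entirely, with a difference of -0.08 ± 0.07.

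The metabotropic receptors gave 4 differences below 0 and 2 above, with a median of -0.05. Grm5, the Gq-coupled receptor mGluR5 of pyramidal neurons, was at 12.08, 11.90, 12.14, 12.01 and 12.09 in Ts65Dn mice and at 11.99, 12.11, 12.01, 12.14 and 12.01 in controls, a difference of -0.01 ± 0.05. Grm3, a Gi-coupled receptor also present in astrocytes, was at 11.04, 11.03, 10.95, 11.00 and 11.18 in Ts65Dn mice and at 10.99, 11.19, 11.23, 11.16 and 11.13 in controls. For Grm3 the highest Ts65Dn mouse, replicate 5, was above 3 of the controls, and the difference was -0.10 ± 0.06.

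Grm8, a presynaptic receptor that lowers transmitter release, was at 6.75, 6.88, 6.67, 6.83 and 6.93 in Ts65Dn mice and at 6.71, 7.10, 6.88, 6.98 and 7.09 in controls. All 5 Ts65Dn mice were below the control mean, but control replicate 1 was lower than 4 of them. The difference was -0.14 ± 0.08 (unadjusted p = 0.0925, adjusted p = 1.00, limma), and the rank method called Grm8 lower. Of the other presynaptic receptors, Grm4 gave -0.12 ± 0.09, Grm7 0.01 ± 0.07 and Grm2, the mGluR2 of mossy fibre terminals, 0.09 ± 0.08, the highest difference of the set.

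Cacng2, Cacng3 and Cacng8 encode stargazin, TARP γ-3 and TARP γ-8, auxiliary subunits that bring AMPA receptors to the synapse. Cacng3 was at 11.74, 11.56, 11.42, 11.35 and 11.28 in Ts65Dn mice and at 11.71, 11.49, 11.52, 11.39 and 11.27 in controls, and its fold change was 0.997 (95% interval 0.861 to 1.15). Cacng8 was at 10.70, 10.51, 10.71, 10.51 and 10.60 in Ts65Dn mice and at 10.66, 10.60, 10.63, 10.79 and 10.59 in controls, and its fold change was 0.968 (95% interval 0.891 to 1.05). For Cacng3 the spread within a genotype was far wider than the difference, with replicate 1 highest and replicate 5 lowest in both. Cacng2 had a difference of 0.02 ± 0.09 and was also highest in replicate 1 of each genotype, which are separate mice.

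The scaffold genes gave 6 differences below 0 and 4 above, with a median of -0.01. Homer2, at chr7:81600481-81706925, encodes an adaptor that joins group I metabotropic receptors to Shank and to calcium stores. Its signal was 9.80, 9.78, 9.98, 10.06 and 10.09 in Ts65Dn mice and 10.01, 10.12, 10.15, 10.21 and 10.02 in controls. Ts65Dn replicates 1 and 2 were the lowest mice, replicate 3 was also below every control, and replicates 4 and 5 lay among the controls. The difference was -0.16 ± 0.07 and the fold change 0.894 (95% interval 0.805 to 0.994, unadjusted p = 0.0395, adjusted p = 1.00, limma). A dimmer transcript cluster of Homer2 gave -0.14 ± 0.07 (unadjusted p = 0.0846, adjusted p = 1.00, limma). In all, 4 genes of the set had more than 1 transcript cluster. The dimmer clusters gave 0.10 ± 0.08 for Cacng2, 0.14 ± 0.17 for Dlgap1, and -0.01 ± 0.13 and -0.0048 ± 0.14 for Shank2. Homer3, a paralog of Homer2, had a difference of -0.10 ± 0.05 with all 5 Ts65Dn mice below the control mean.

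Dlg4 encodes PSD-95, the main scaffold of the postsynaptic density. It was at 12.48, 12.26, 12.39, 12.34 and 12.33 in Ts65Dn mice and at 12.47, 12.29, 12.31, 12.39 and 12.31 in controls, a fold change of 1.00 (95% interval 0.929 to 1.08). Dlgap1, the SAPAP1 protein that bridges PSD-95 and Shank, was at 12.21, 12.14, 12.10, 12.12 and 12.09 in Ts65Dn mice and at 12.18, 12.06, 12.11, 12.09 and 12.01 in controls, a fold change of 1.03 (95% interval 0.968 to 1.09). The genotypes of both genes overlapped, and for Dlgap1 0 of the 5 Ts65Dn mice were below the control mean. Among the PSD-95 relatives, Dlg1 (SAP97) gave 0.02 ± 0.04, Dlg2 (PSD-93) -0.01 ± 0.05 and Dlg3 (SAP102) 0.07 ± 0.04. The deeper Shank scaffolds gave -0.06 ± 0.05 for Shank1, -0.01 ± 0.06 for Shank2 and -0.02 ± 0.05 for Shank3.

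CaMKII, the kinase that NMDA receptor calcium activates, was measured by its neuronal subunits, and the standard error of Camk2a was the lowest of the set. Camk2a was at 13.51, 13.46, 13.56, 13.50 and 13.52 in Ts65Dn mice and at 13.50, 13.51, 13.50, 13.56 and 13.52 in controls, a fold change of 0.996 (95% interval 0.949 to 1.05). Camk2b was at 13.00, 12.89, 13.00, 12.99 and 12.97 in Ts65Dn mice and at 13.01, 12.91, 12.97, 13.02 and 13.02 in controls, a fold change of 0.991 (95% interval 0.937 to 1.05). The genotypes overlapped for both subunits.

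Across the whole set the differences leaned to the lower side, 24 of 32 (75.0%) being below 0 against 52.4% of all tested transcript clusters, with a median difference of -0.02. This lean rested on 2 mice. Ts65Dn replicate 2 was the lowest of the 10 mice for 16 of the 32 genes, and control replicate 4 the highest for 11. Without Ts65Dn replicate 2 the count below 0 was 16 of 32 and the median -0.00052, and without control replicate 4 they were 18 of 32 and -0.0049. With any other single array left out, 23 to 25 genes were below 0. The genes with the lowest values were not all of this kind, since for Grin2d Ts65Dn replicate 2 was the highest mouse and the difference without it was -0.23.

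**Figure D3:**
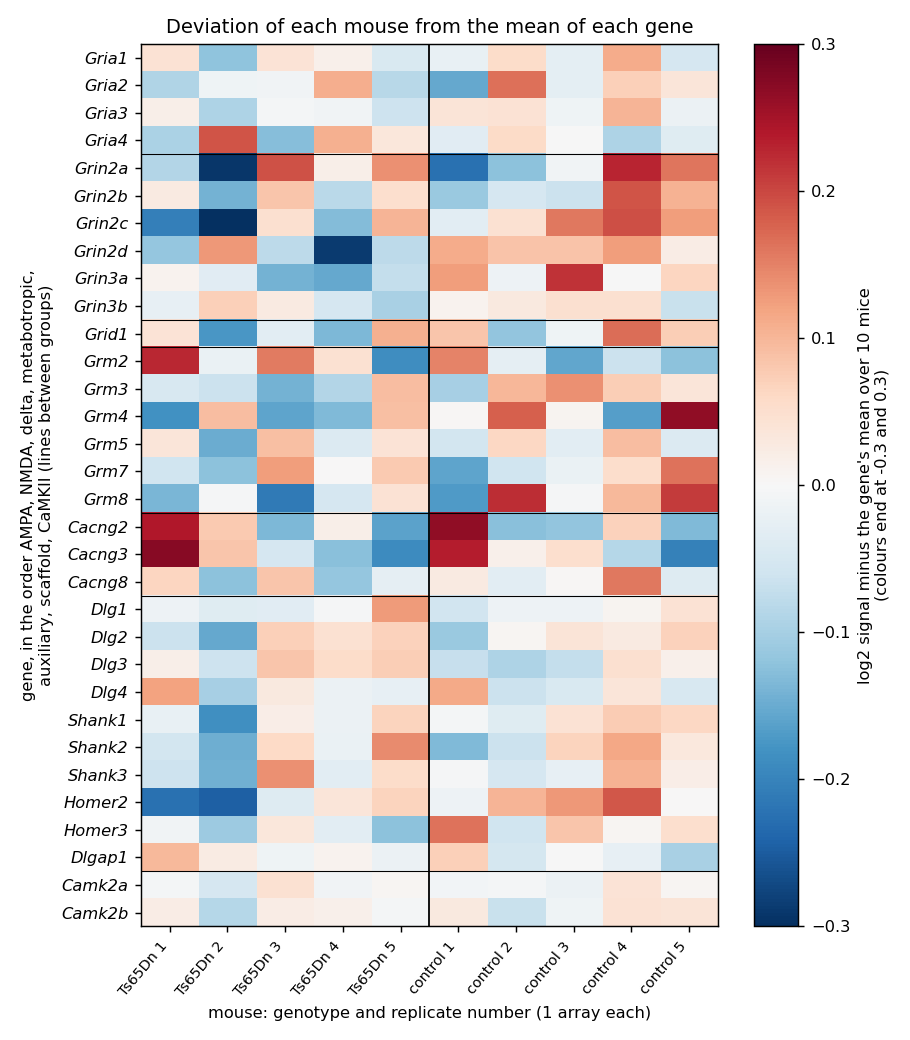
Log2 signal of each gene (rows, by group) in each of the 10 mice (columns), as the deviation from that gene's mean over all mice; blue is low, red is high, and colours end at -0.3 and 0.3. Ts65Dn replicate 2 is the lowest mouse for 16 genes and control replicate 4 the highest for 11, while Cacng2 and Cacng3 are high in replicate 1 of both genotypes.

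**Figure D4:**
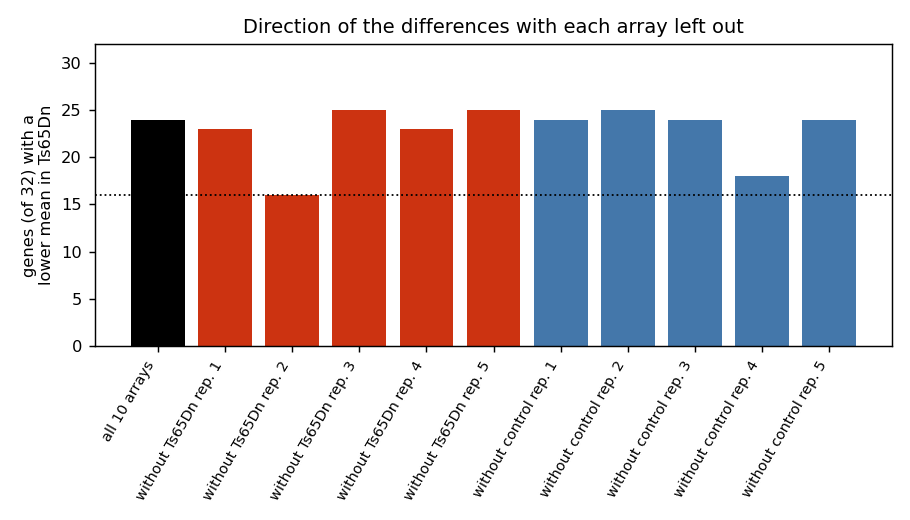
Number of the 32 genes with a lower mean in Ts65Dn, with all 10 arrays (black) and with each Ts65Dn (red) or control (blue) array left out; the dotted line marks 16. The count falls from 24 to 16 without Ts65Dn replicate 2 and to 18 without control replicate 4.

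Split by signal, the set differed between its parts. Of the 16 genes with the lower mean signals, from 6.17 to 10.33, 4 were at an unadjusted p under 0.05 11 had a difference below 0 and the median was -0.05. Of the 16 with signals from 10.49 to 13.51, 0 were at that level, 13 had a difference below 0 and the median was -0.01. The larger differences were thus among the dimmer genes, while differences below 0 were at least as frequent among the brighter ones.

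**Figure D5:**
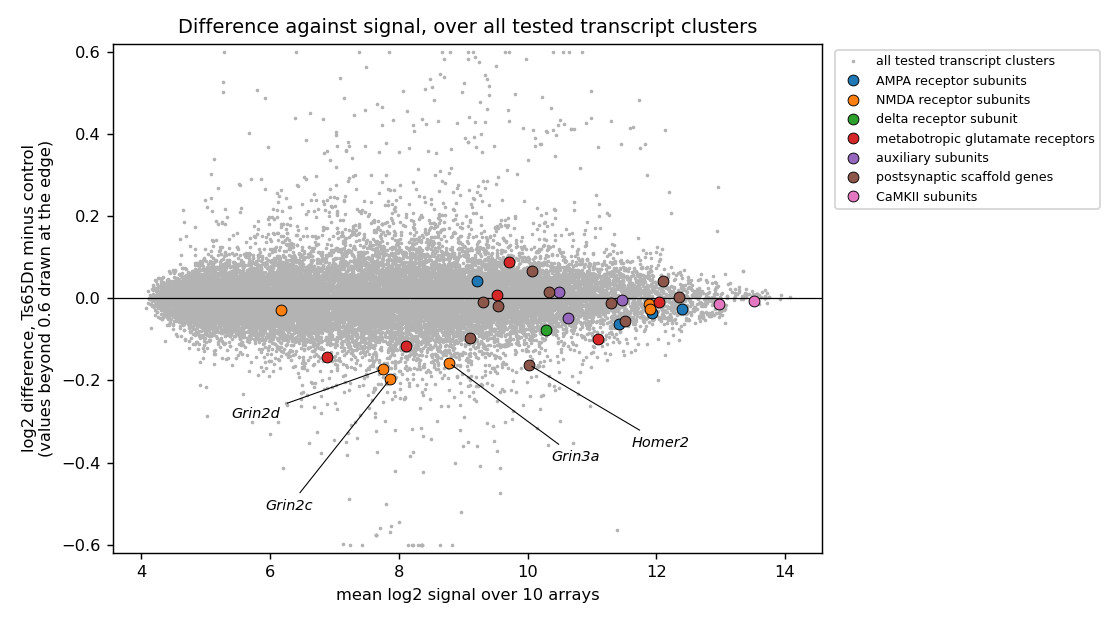
Log2 difference (Ts65Dn minus control) plotted by mean log2 signal of the 10 mice, for the 32 genes (coloured by group) and all 23410 tested transcript clusters (grey, values beyond 0.6 drawn at the edge). Grin2c, Grin2d, Grin3a and Homer2 are labelled and had the lowest differences of the set, from -0.20 to -0.16.

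Markers of other cells and of other brain tissue were lower in mean in Ts65Dn hippocampi for some lists and higher for others. All 6 thalamic markers had lower means in Ts65Dn hippocampi, with summed linear signals of 2056 to 3096 against 2431 to 3562 in controls, and so had 5 of 6 cerebellar markers (445 to 1031 against 566 to 1657), all 5 measured markers of oligodendrocytes (13840 to 20240 against 16817 to 18473), 4 of 6 markers of CA1 pyramidal neurons (5929 to 7130 against 6621 to 7758) and 5 of 6 markers of GABA interneurons (7452 to 9652 against 7549 to 10023). The ranges of the genotypes overlapped for each list. Among the interneuron markers Vip was the higher one (difference 0.25 ± 0.11), and the lower ones ran from -0.11 ± 0.09 for Pvalb to -0.004 ± 0.06 for Gad1. The mean difference of the interneuron list was -0.01. Means were higher for 4 of 5 measured excitatory neuron markers, 4 of 6 CA3 markers, 5 of 6 microglial markers and 4 of 5 measured endothelial markers. The dentate granule, astrocyte and striatal lists were evenly divided. All 6 choroid plexus markers had higher means, with sums of 1200 to 15674 against 1472 to 14295. Of these, Clic6 and Kcne2 lie in the triplicated chromosome 16 segment and had the largest differences (0.66 ± 0.78 and 0.39 ± 0.39). The other choroid plexus differences ran from 0.05 ± 1.07 for Ttr to 0.26 ± 0.47 for Folr1. The choroid plexus list was highest of all mice in Ts65Dn replicate 2, with a mean log2 signal of 9.93. No marker was listed at 0, and the range of the cerebellar sum was mostly that of Zic1 (162 to 734 against 253 to 1356). The other 5 cerebellar markers had mean log2 signals of only 4.90 to 6.50 and together gave 274 to 297 against 293 to 312. Among the CA1 markers Wfs1 was at 10.40, 10.34, 10.73, 10.60 and 10.58 in Ts65Dn mice and at 10.88, 10.97, 10.86, 10.84 and 10.85 in controls, with no overlap (difference -0.35 ± 0.07, unadjusted p = 0.000324, adjusted p = 0.0925, limma). For every other CA1 marker the genotypes overlapped, and Spink8 and Mpped1 had higher means in Ts65Dn hippocampi (differences 0.15 ± 0.11 and 0.01 ± 0.09). The part of these tissues and cells in the values of Grin2c, Grin2d, Grin3a and Homer2 was not tested.

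A further 50 genes of glutamatergic signalling were listed, of which 45 were measured. With limma, 0 of 45 had an adjusted p under 0.05, 2 were lower and 1 higher at an unadjusted p under 0.05, and the rank method called 3 lower and 1 higher. Over all transcript clusters the shares were 0.316% at the adjusted threshold, 1.43% lower and 1.73% higher at the unadjusted p, and 2.46% lower and 2.92% higher by the rank method. Differences were below 0 for 23 of 45, with a median of -0.01. Both the paralogs outside the set and the AMPA receptor partners were evenly divided, with 5 below and 5 above 0 and with 7 below and 7 above.

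Nos1, the neuronal nitric oxide synthase that PSD-95 couples to NMDA receptors, had the smallest p of these genes. It was at 9.20, 9.30, 9.14, 9.05 and 9.41 in Ts65Dn mice and at 9.43, 9.43, 9.53, 9.62 and 9.61 in controls, so that every Ts65Dn mouse lay below every control. The difference was -0.30 ± 0.07 and the fold change 0.811 (95% interval 0.730 to 0.900), with an unadjusted p of 0.00103 and an adjusted p of 0.225 in limma. Under the alternatives tried its adjusted p ran from 0.0695 to 0.625.

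Cacng5, a TARP that also marks CA2 pyramidal neurons, was at 8.31, 8.47, 7.90, 8.05 and 8.28 in Ts65Dn mice and at 8.46, 8.90, 8.29, 8.68 and 8.37 in controls (difference -0.34 ± 0.13, unadjusted p = 0.0238, adjusted p = 1.00, limma). All 5 markers of CA2 neurons, Cacng5 among them, had lower means in Ts65Dn hippocampi. Slc17a8, the vesicular transporter VGLUT3, was at 6.97, 6.92, 6.96, 6.97 and 6.85 in Ts65Dn mice and at 6.90, 6.79, 6.71, 6.94 and 6.46 in controls (difference 0.17 ± 0.08, unadjusted p = 0.0495, adjusted p = 1.00, limma). Control replicate 5 was far below the other controls for Slc17a8, and the genotypes overlapped for both genes.

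Of the remaining listed genes with the smallest p, Dlg5, a distant PSD-95 relative, gave -0.10 ± 0.05, and Camk2d and Camk2g, the other CaMKII subunits, gave -0.20 ± 0.12 and 0.08 ± 0.06. Camk2n1, a CaMKII inhibitor, gave 0.09 ± 0.06. The AMPA receptor partners Shisa7, Pick1 and Grip2 gave -0.09 ± 0.07, 0.08 ± 0.05 and -0.05 ± 0.04. The transporters Slc17a7 (VGLUT1) and Slc1a3 (GLAST) gave 0.04 ± 0.04 and -0.06 ± 0.05.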

How the data were processed

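The authors deposited RMA values (background-corrected, brought to equal distributions and summarised over probes) as log2 signals for 35556 transcript clusters of 10 arrays, and these were used as given. RMA, limma and mm10 are named, with no version, in the submitters' processing notes. Gene symbols came from the platform annotation, and the brightest transcript cluster with a single symbol stood for its gene. The 23410 transcript clusters with a symbol entered a linear model of genotype alone (limma 3.58.1, R 4.3.3, moderated by eBayes), and p-values were adjusted by the Benjamini-Hochberg method. Tests were two-sided and covered the whole table. The script was tested on simulated data. The rank method, run as an alternative, used trimmed mean ranks of the fold changes over all pairs of a Ts65Dn and a control array, and may differ from the program of the study. Gene positions and promoter sequences were from RefSeq (GRCm38.p6). Genes and lists were chosen with earlier results of these data known. Every mouse's value is given for genes at an unadjusted p under 0.05, the 2 brightest of each group, Grid1, CaMKII and Grm8, which was added after its values were seen. The labels call the mice biological replicates, and 5 mice per genotype limit the precision.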

Additional observations from a re-analysis of the deposited data

Results flagged for a closer look

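In 2 of the 64 sets of 5 mice that were examined (32 genes in each genotype), a mouse stood apart from the rest of its genotype by more than Dixon's critical value of 0.710. Chance gives this in about 1 in 20 sets. For Dlg1, which encodes the scaffold SAP97, Ts65Dn replicate 5 was the highest at 10.45, and the nearest Ts65Dn mouse was at 10.32. For Camk2b, Ts65Dn replicate 2 was the lowest at 12.89, and the nearest Ts65Dn mouse was at 12.97.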

How the results depend on the processing

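Under the 20 alternatives tested with limma, and at an adjusted p of 0.1, the number of genes of the set past the threshold stayed 0, whereas the rank method called 5 of the set and 4 of the other genes of the pathway. With the replicate number added to the limma model as a block, 7 genes were lower and 0 higher at an unadjusted p under 0.05 (Grm4, Grm8 and Homer3 in addition). Of all 23410 transcript clusters, 558 were lower and 622 higher at that level, together 5.04%. Leaving out 1 array gave 2 to 6, namely 2 when Ts65Dn replicate 1, Ts65Dn replicate 2, control replicate 3 or control replicate 4 was absent and 6 when control replicate 1 was. Grin2d and Grin3a stayed under 0.05 in 20 of 20 alternatives, Grin2c and Homer2 in 14, with unadjusted p up to 0.0721 and 0.101 in limma. The sign of the difference never changed for 17 genes and changed at least once for 15. Replicate numbers, which the main model did not use, are shared between genotypes. Deviations of same-numbered mice from their genotype means correlated by 0.0313 to 0.507. Of 10 mice, 7 correlated best with their own number, a hint from the data and not from the design. The cause of these shifts was not tested.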
